A study of Mus musculus with 8 samples.

Results

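Genes of thyroid hormone and glucocorticoid action were examined for chromatin association of the transcription factor KLF13 in HT22, an immortalised mouse hippocampal neuronal line. The 10 genes were Thra, Thrb, Nr3c1, Nr3c2, Fkbp4, Fkbp5, Dio2, Hr, Tsc22d3 and Sgk1, and a peak counted for a gene when the authors' annotation gave it that symbol. By that rule 12 of the 9506 deposited peaks belonged to 7 of the 10 genes, and Nr3c2, Dio2 and Sgk1 had none.

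There were 4 KLF13 ChSP libraries and 4 input libraries. All 8 came from HT22-BirA cells, which stably make the biotin ligase BirA and were transfected with the pTO-Klf13Bio plasmid for KLF13 that BirA can biotinylate. Chromatin was taken 24 h after transfection, and in chromatin streptavidin precipitation (ChSP) the biotinylated factor was pulled down on streptavidin, while input chromatin was not. KLF13 was thus supplied by a plasmid, and a pulldown from cells without tagged KLF13 was not analysed here, so capture on streptavidin alone cannot be told apart from KLF13 binding. The deposited list gives each peak a fold, the linear ratio of ChSP over input, and a p-value, both the authors' own and both set over all libraries together. It holds no value per library, so no fold below has a replicate error, no test over samples could be made, and read depth is unknown. A peak list has no expression values, so the identity of the cells was not checked against markers.

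Thyroid hormone acts through the nuclear receptors THRα and THRβ, which sit on DNA with retinoid X receptors and exchange corepressors for coactivators when hormone binds. Glucocorticoids act through the glucocorticoid receptor and, at lower hormone levels, the mineralocorticoid receptor, both of which the hippocampus makes in abundance. FK506-binding co-chaperones set the hormone affinity and nuclear entry of the glucocorticoid receptor. KLF13 is a zinc finger protein of the KLF and Sp family, which binds GC-rich elements such as the GC box.

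Start sites of 6 of the genes are shown here, some under a KLF13 peak and some outside any peak. They are a selection: of 2 annotated Thrb starts only the 1 under a peak is shown. For Sgk1 the start richest in G+C of 6 is shown. Tsc22d3, with 3 annotated starts and 0 of them under a peak, is not shown. Each sequence is the 250 bases before an annotated start, 5′ to 3′ on the gene's strand, from RefSeq on GRCm38.p6. Capitals mark the GC box, GGGCGG on either strand.
Fkbp5, chr17:28486150-28486399, minus strand, under a peak: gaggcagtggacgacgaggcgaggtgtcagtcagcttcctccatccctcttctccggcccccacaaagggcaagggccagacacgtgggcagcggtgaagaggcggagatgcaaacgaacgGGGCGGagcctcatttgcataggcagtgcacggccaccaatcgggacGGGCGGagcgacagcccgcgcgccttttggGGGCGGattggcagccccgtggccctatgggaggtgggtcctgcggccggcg
Fkbp4, chr6:128438657-128438906, minus strand, under a peak: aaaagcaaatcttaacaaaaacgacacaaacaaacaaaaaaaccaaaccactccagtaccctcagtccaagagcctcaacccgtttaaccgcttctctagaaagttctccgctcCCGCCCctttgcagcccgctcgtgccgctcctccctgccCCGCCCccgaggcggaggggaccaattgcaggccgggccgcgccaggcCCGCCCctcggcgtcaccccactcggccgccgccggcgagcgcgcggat
Thrb, chr14:17660710-17660959, plus strand, under a peak: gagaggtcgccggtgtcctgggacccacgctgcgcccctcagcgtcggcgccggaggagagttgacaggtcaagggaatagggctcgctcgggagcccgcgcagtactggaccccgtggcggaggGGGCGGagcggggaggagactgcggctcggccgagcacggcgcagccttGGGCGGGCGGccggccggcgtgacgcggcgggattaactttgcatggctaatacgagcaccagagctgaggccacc
Nr3c2, chr8:76902080-76902329, plus strand, not under a peak: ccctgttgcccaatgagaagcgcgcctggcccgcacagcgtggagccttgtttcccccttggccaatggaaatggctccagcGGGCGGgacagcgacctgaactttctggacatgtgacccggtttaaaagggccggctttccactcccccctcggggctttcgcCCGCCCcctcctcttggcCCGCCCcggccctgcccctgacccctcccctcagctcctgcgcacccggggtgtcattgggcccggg
Sgk1, chr10:21994416-21994665, plus strand, not under a peak: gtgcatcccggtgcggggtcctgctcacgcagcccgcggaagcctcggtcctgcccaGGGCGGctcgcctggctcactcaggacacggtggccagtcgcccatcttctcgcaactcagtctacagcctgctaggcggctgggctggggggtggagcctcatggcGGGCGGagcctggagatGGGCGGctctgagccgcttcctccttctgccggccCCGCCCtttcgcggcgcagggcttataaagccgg
Dio2, chr12:90739039-90739288, minus strand, not under a peak: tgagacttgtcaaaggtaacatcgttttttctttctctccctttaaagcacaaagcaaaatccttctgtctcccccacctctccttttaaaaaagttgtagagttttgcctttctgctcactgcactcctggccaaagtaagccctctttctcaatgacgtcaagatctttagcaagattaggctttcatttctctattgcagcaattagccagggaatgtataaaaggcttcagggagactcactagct

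The Fkbp5, Fkbp4 and Thrb stretches each lay whole under their peak, and each held 3 GC boxes, a pair of which overlap in Thrb. The Nr3c2 stretch also held 3 GC boxes and the Sgk1 stretch 4, with no peak over them. The Dio2 stretch held 0.

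A peak no more than 1 kb from a transcription start site (TSS) was taken as a promoter peak, and 7 of the 10 genes had at least 1: Thra, Thrb, Nr3c1, Fkbp4, Fkbp5, Hr and Tsc22d3. Over all 21900 protein-coding genes of the RefSeq table the share was 30.9%. Counting any assigned peak, the 7 genes were the same and the share over all genes was 33.6%. When the list was restricted to its 4753 peaks of lowest p, promoter peaks were left at 4 of the 10 genes (Thra, Nr3c1, Fkbp5 and Tsc22d3), and at 18.6% of all protein-coding genes. The highest promoter fold per gene ran from 19.0 to 44.0 with a median of 29.7 over the 7 genes, and the median over all protein-coding genes with a promoter peak was 22.9. Of the 7 genes 5 lay above that median, and Hr and Thrb lay below it. These are counts over genes that were chosen for their function with earlier results of the data known, so they describe the genes and carry no test.

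**Figure D1:**
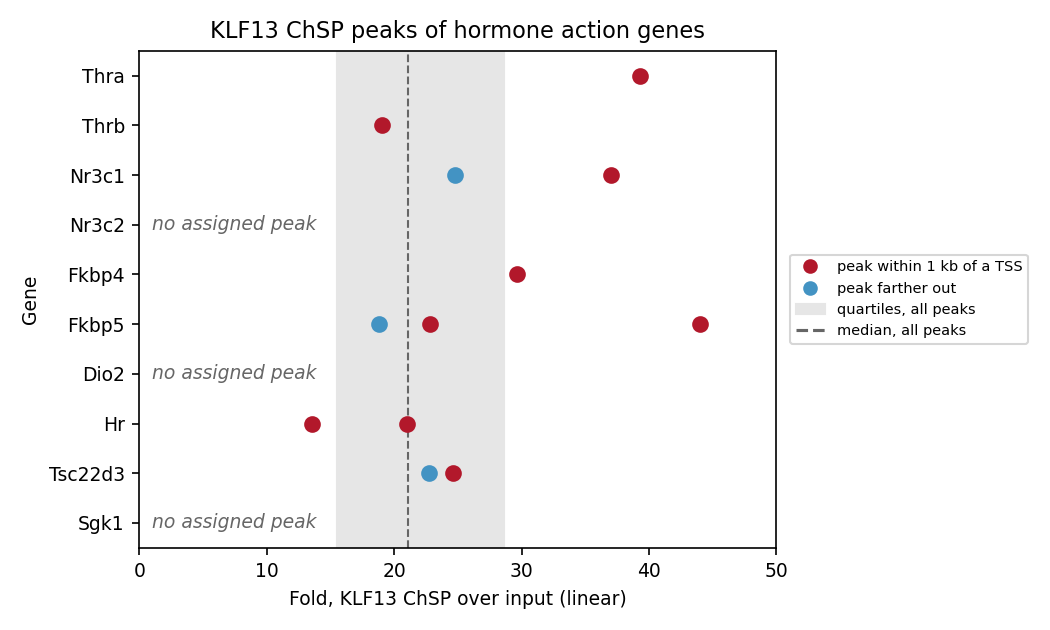
Fold of ChSP over input (horizontal axis, linear) for each of the 12 peaks, by gene, with red points for peaks within 1 kb of a TSS and blue points for peaks farther out. The grey band spans the quartiles of all 9506 peaks (15.5 to 28.6) and the dashed line their median of 21.1; Thra, Nr3c1, Fkbp4 and Fkbp5 each have a peak to the right of the band.

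Both thyroid hormone receptor genes had a peak over a TSS. Thra (ENSMUSG00000058756), which encodes the receptor form that predominates in brain, had a peak on chromosome 11 spanning 98741401 to 98742400, with a fold of 39.3 and an authors' p of 7.19e-24. That peak was 1000 bp wide and ran from 384 bp upstream to 615 bp downstream of the TSS. Thrb (ENSMUSG00000021779), which encodes the form that mediates hormone feedback in the pituitary, had a peak on chromosome 14 spanning 17660601 to 17661200, with a fold of 19.0 and an authors' p of 2.38e-10. It was 600 bp wide and lay over the TSS, from 359 bp upstream to 240 bp downstream. The Thra fold ranked 837 and the Thrb fold 5585 among the 9506 peaks. RefSeq places the Thrb gene over 381 kb with 2 start windows in its promoter table, and the other one had no peak. The end of another gene model, LOC115488350, lay within 1 kb of the Thrb peak.

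Nr3c1 (ENSMUSG00000024431), the glucocorticoid receptor gene, had the widest peak of the 12, at 2000 bp, and only 37 of the 9506 peaks were wider. Its fold was 37.0 and its authors' p 1.55e-20. It spanned 39488901 to 39490900 on chromosome 18 and reached from 1124 bp upstream to 875 bp downstream of the assigned TSS. This gene has several alternative first exons, and RefSeq puts its upstream end at 39519421, outside the peak. A second Nr3c1 peak lay in intergenic DNA at 39549801 to 39550200, 60.0 kb upstream of the assigned TSS and beyond the RefSeq bounds of the gene. Its fold was 24.8 at an authors' p of 4.27e-09.

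Nr3c2, the mineralocorticoid receptor gene, had no assigned peak. Inside its RefSeq bounds, however, lay a peak spanning 76899001 to 76899500 on chromosome 8, with a fold of 15.5 and an authors' p of 3.60e-08. The authors assigned it to Gm10649, an unnamed gene model on the opposite strand whose start was 673 bp away. The peak began 918 bp inside the RefSeq bounds of Nr3c2 and ended 2830 bp upstream of the Nr3c2 start used for the sequence above. By the authors' assignment the glucocorticoid receptor gene therefore had a promoter peak and the mineralocorticoid receptor gene had none. Counting peaks within 1 kb of either end of the RefSeq gene turned this round, with a peak at Nr3c2 and none at Nr3c1.

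Both co-chaperone genes had a peak over the TSS. Fkbp5 (ENSMUSG00000024222), a glucocorticoid-induced inhibitor of the glucocorticoid receptor, had the highest fold of the 12 peaks, 44.0, in a peak spanning 28485301 to 28486400 on chromosome 17, with an authors' p of 7.29e-24. It ran from 251 bp upstream to 848 bp downstream of the TSS and covered the Fkbp5 sequence above. Fkbp4 (ENSMUSG00000030357), a co-chaperone that favours receptor activity, reached 29.7 in a peak spanning 128438001 to 128439000 on chromosome 6, with an authors' p of 2.53e-11. The end of another gene model, Gm10069, lay within 1 kb of the Fkbp4 peak.

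Fkbp5 had 3 peaks, a number that 1.29% of the 21900 protein-coding genes reached or passed. The other two belonged to a longer transcript model whose start lies outside the RefSeq bounds of Fkbp5. One lay at 28517901 to 28518400, ending 377 bp upstream of that start, with a fold of 22.8 at an authors' p of 1.68e-09. The other, at 28522901 to 28523500, lay 5377 bp upstream with a fold of 18.8 at an authors' p of 5.64e-13, and the authors' annotation places it in the exon of another transcript. The gene model E230001N04Rik has an end within 1 kb of it. The 3 Fkbp5 peaks were separated by 31500 and 4500 bp.

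The corepressor gene Hr had assigned peaks and the hormone-metabolising enzyme gene Dio2 had none. Dio2 encodes the deiodinase that makes active thyroid hormone inside the brain, and the nearest peak to it, at Gtf2a1, was 849963 bp away. Hr (ENSMUSG00000022096), a corepressor of thyroid hormone receptors that the hormone itself induces in brain, had 2 small peaks downstream of its TSS on chromosome 14. The nearer one, at 70554101 to 70554500, began 45 bp from the TSS and had a fold of 21.0 at an authors' p of 1.30e-06. The farther one, at 70554701 to 70554900, began 645 bp from the TSS and had a fold of 13.6, the lowest of the 12 at an authors' p of 2.96e-06. Its width of 200 bp is the smallest in the list, and 200 bp separated the pair. By p the Hr peaks ranked 8669 and 8993 of 9506, near the end of the list.

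Of the glucocorticoid target genes, Tsc22d3 had assigned peaks and Sgk1 had none. Tsc22d3 (ENSMUSG00000031431), which encodes the glucocorticoid-induced leucine zipper protein, had 2 peaks inside the gene on chromosome X. The peak at 140599101 to 140600000 began 522 bp downstream of the TSS, with a fold of 24.6 at an authors' p of 7.61e-15. The peak at 140598701 to 140599000 began 1522 bp downstream, with a fold of 22.7 at an authors' p of 3.91e-07, and 100 bp separated the pair. No peak lay over any of the 3 Tsc22d3 start windows in the RefSeq promoter table. Sgk1, a kinase gene induced by glucocorticoids and mineralocorticoids, had no peak at any of its 6 start windows in that table. The nearest peak lay 142 kb away in an intron of E030030I06Rik, with a fold of 2.75.

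**Figure D2:**
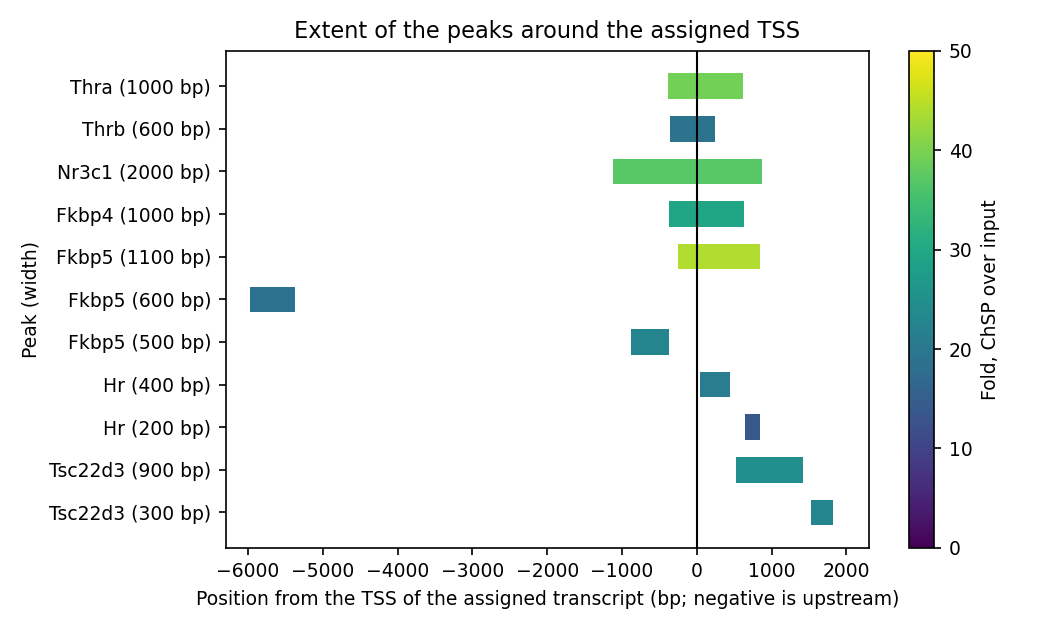
Extent of 11 of the peaks along the assigned transcript (horizontal axis, bp from its TSS, upstream negative), with colour giving the fold of ChSP over input. The Nr3c1 peak 60.0 kb upstream is left out; the Thra, Thrb, Nr3c1, Fkbp4 and the highest Fkbp5 peak cross the TSS, while all the Hr and Tsc22d3 peaks lie downstream of it.

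Promoter peaks made up 9 of the 12, and 5 overlapped a TSS, against 79.9% and 62.9% of all peaks. The 5 peaks over a TSS belonged to the 3 receptor genes and both co-chaperone genes, and they were 600 to 2000 bp wide. The 4 peaks of Hr and Tsc22d3 lay wholly downstream of their TSS and were 200 to 900 bp wide. The remaining 3, a pair at Fkbp5 and the distal Nr3c1 peak, lay wholly upstream and were 400 to 600 bp wide.

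Rank by fold and rank by p did not always match. For Thra and Fkbp5 the p ranks were 721 and 722, and the fold ranks 837 and 500. Fkbp4 ranked 2167 by fold but 5181 by p, although its peak was as wide as that of Thra. The nearer Hr peak ranked 4774 by fold and 8669 by p. The 7 highest promoter folds therefore stood between percentiles 36.5 (Thrb) and 93.8 (Fkbp5) of all 7599 promoter peaks, and between 6.48 (Hr) and 90.7 (Thra and Fkbp5) when promoter peaks were ranked by p.

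**Figure D3:**
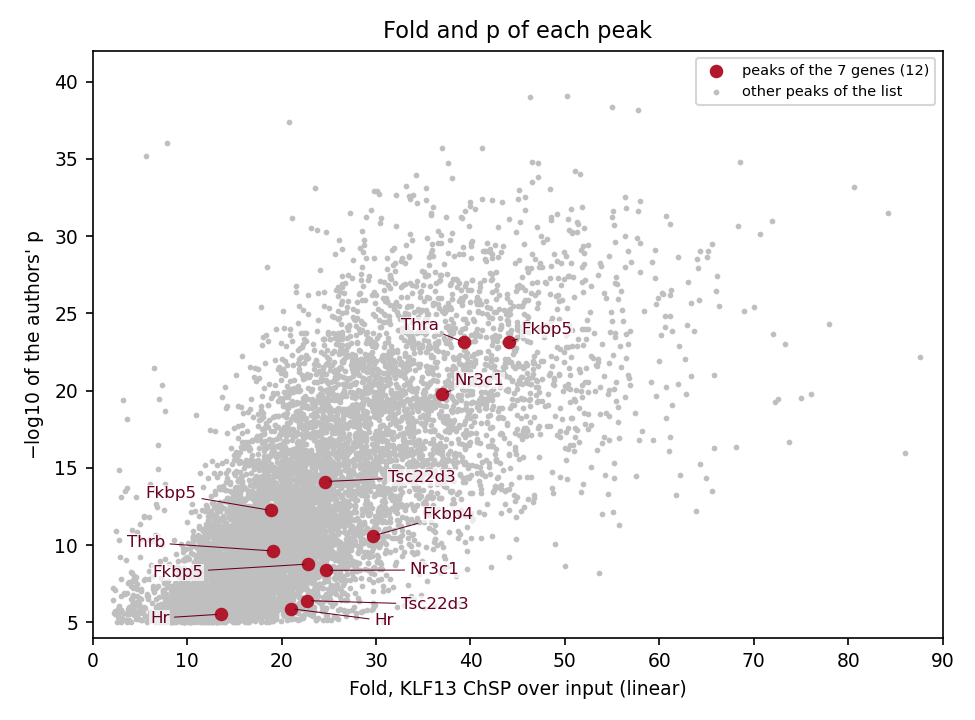
Fold of ChSP over input (horizontal axis, linear) against the negative log10 of the authors' p (vertical axis) for each peak, with the 12 peaks in red over the other peaks in grey; 6 grey peaks lie above the plotted range. Thra, Fkbp5 and Nr3c1 have peaks in the upper part, and the Hr peaks sit near the lower edge at a p of 1.30e-06 and 2.96e-06.

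Base composition of the starts was then compared with that of all starts. The RefSeq promoter table holds 300-base windows, from 250 bases before to 50 after each start, for 7 of the 10 genes (15 windows), and Thra, Nr3c1 and Hr are not in it. The 3 windows under a peak, of Fkbp4, Fkbp5 and Thrb, had a G+C content of 65.3% to 72.7% and 32 to 37 CpG dinucleotides. Among all 32851 windows, the 6511 under a peak had medians of 68.7% and 29 CpG, and all windows together 52.7% and 7 CpG. Of the windows not under a peak, that of Dio2 had 44.7% and 3 CpG, that of Nr3c2 65.7% and 17 CpG, and the most CpG-rich of Sgk1 69.7% and 28 CpG. That most CpG-rich Sgk1 window thus had the composition typical of windows under a peak, with no peak over it. The other Sgk1 windows had at most 49.7% and at most 10 CpG, and each lay below the median G+C content of all windows.

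The GC box GGGCGG, searched on both strands, was present in 35.7% of all windows, in 82.4% of those under a peak and in 24.1% of the rest. It was in 8 of the 15 windows of these genes. At least 1 window held it in 6 of the 7 genes, Dio2 being the exception, and in 38.2% of all 27025 genes of the table, where the number of windows differs between genes. It occurred 4 times in the Fkbp5 window and 3 times in those of Fkbp4 and Thrb, against 3 in the Nr3c2 window and 4 in the CpG-rich Sgk1 window. The core of the GT box, GGGTG on either strand, was in 57.5% of all windows, in 67.6% of those under a peak and in 55.0% of the rest. Among these genes it was in 1 of the 3 windows under a peak and in 4 of the other 12. There were 2 matches each in the windows of Fkbp4 and Nr3c2 and in a Tsc22d3 window. Another Tsc22d3 window and the CpG-rich Sgk1 window had 1 each. The others had 0, those of Fkbp5 and Thrb included. GGGTG can overlap a GC box. The hexamer AGGTCA of thyroid hormone response elements was in 8.79% of all windows under a peak and 18.1% of the rest, and among these genes once in the Thrb window under a peak and once in each of 2 Sgk1 windows. The hexamer AGAACA of glucocorticoid response elements was in 6.82% of all windows under a peak and 22.0% of the rest. It was in 0 of the 3 windows of these genes under a peak and in 5 of the other 12, of which 3 were starts of Sgk1. Each of these short motifs is common, and a match describes the letters of a window and not a bound site.

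**Figure D4:**
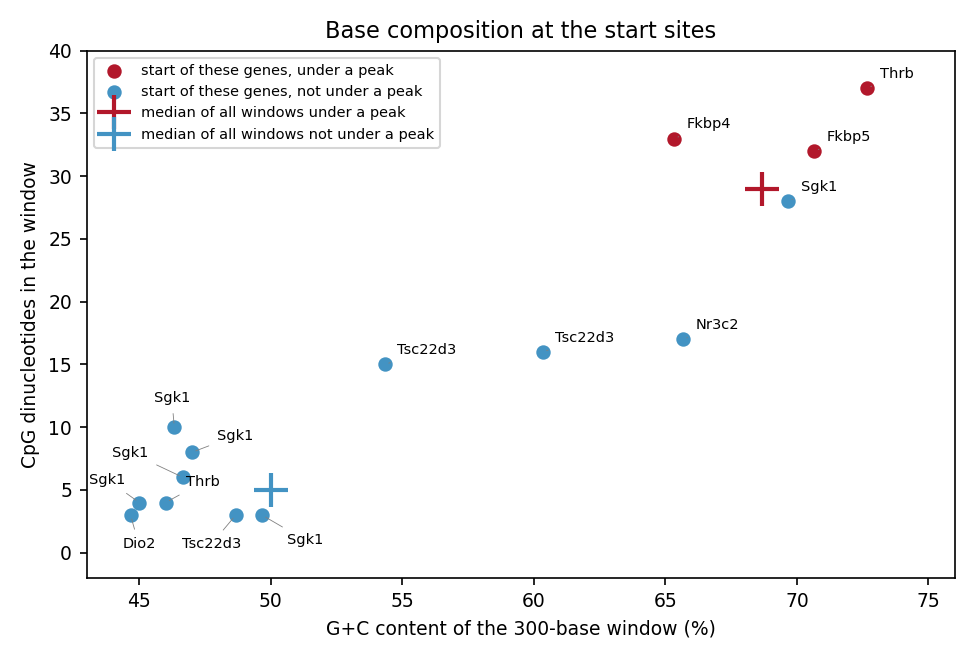
G+C content (horizontal axis, %) and number of CpG dinucleotides (vertical axis) of the 300-base start windows of the 7 genes in the table, red under a peak and blue not under one; crosses give the medians over all windows. The windows of Fkbp4, Fkbp5 and Thrb under a peak lie at 65.3% to 72.7% with the CpG-rich Sgk1 window beside them. Dio2 lies at 44.7% and the Thrb window not under a peak at 46.0%.

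The wider pathways were read from lists of 16 further thyroid hormone genes and 18 further glucocorticoid genes. Of the 16 thyroid hormone genes 8 had a promoter peak, among them the coactivator genes Ncoa1, Ncoa2 and Ncoa3 with folds of 40.4, 39.3 and 33.5, the highest of that list. The retinoid X receptor genes Rxrb and Rxrg, the transporter gene Slco1c1, the hormone-binding protein gene Crym, the Mediator gene Med1, and Thrap3 and Thrsp had no assigned peak, and the single peak of the deiodinase gene Dio1 lay in an intron. The 8 genes with a promoter peak had a median highest fold of 31.4. They hold the receptor partner gene Rxra, the corepressor gene Ncor1, the deiodinase gene Dio3, which inactivates the hormone, the transporter gene Slc16a10 and Klf9.

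Of the 18 other glucocorticoid genes 11 had a promoter peak, with a median highest fold of 22.4. Nfkbia, a glucocorticoid-induced inhibitor of NF-κB, had the highest, 48.1, followed by the co-chaperone gene Bag1 with 31.5 and the chaperone gene Hsp90aa1 with 30.3. Hsd11b2, which encodes the enzyme that inactivates glucocorticoids, also had a promoter peak. The chaperone and co-chaperone genes Hsp90ab1, Ptges3, Stip1, Hspa4 and Ppp5c had folds from 12.5 to 24.1. Hspa8, Ppid, Hsd11b1, Per1, Errfi1 and Ddit4 had no assigned peak, and the single Pdk4 peak lay 49.4 kb from the TSS. A peak close to a gene but assigned to its neighbour is not counted in either list. Per1, Errfi1, Ddit4 and Pdk4 are hormone-induced genes, whereas the hormone-induced genes Dusp1, Nfkbia and Zbtb16 had promoter peaks. Among the 10 genes, the hormone-induced Fkbp5, Tsc22d3 and Hr had promoter peaks and Sgk1 had none. Promoter peaks were thus found at 7 of the 10 genes, 8 of the 16 other thyroid hormone genes and 11 of the 18 other glucocorticoid genes, beside 30.9% of all protein-coding genes.

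**Figure D5:**
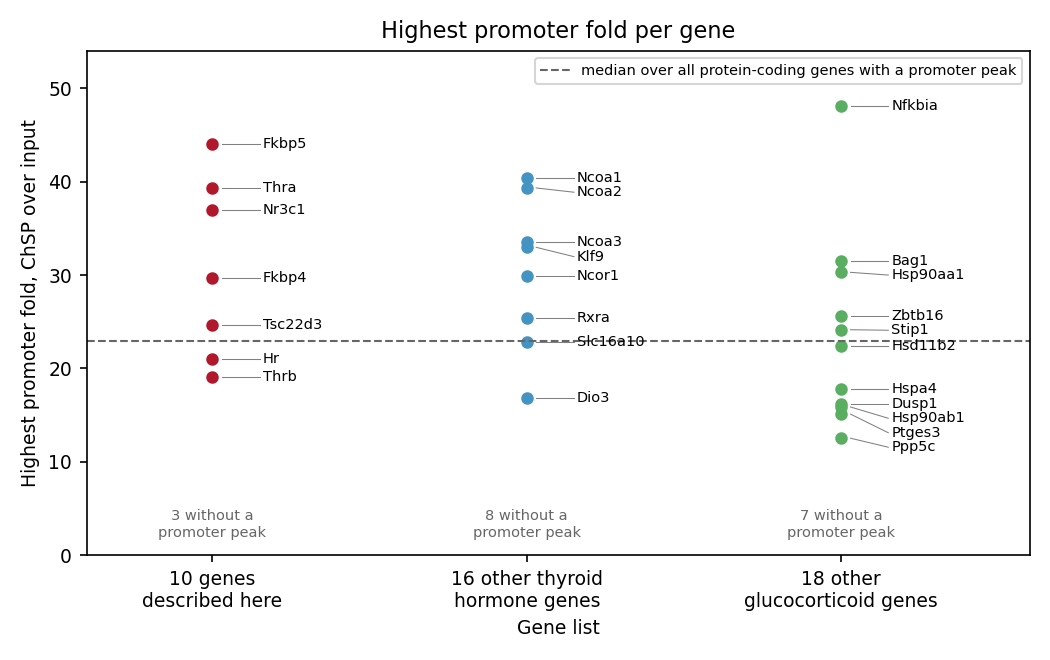
Highest promoter fold of ChSP over input (vertical axis, linear) per gene in the 10 genes and the lists of 16 and 18 further genes, each point a gene, with the number of genes lacking a promoter peak at the foot. The dashed line is the median of 22.9 over all protein-coding genes with a promoter peak; 5 of 7, 6 of 8 and 5 of 11 genes lie above it.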

How the data were processed

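The authors deposited 1 annotated peak list over 4 ChSP and 4 input libraries, with coordinates on GRCm38. Per the submitters' processing notes, HOMER 4.9.1, ChIPseeker 1.16.1, BWA 0.7.17-r1188 and FastQC 0.11.3 were used, in roles not stated, and the deposited list's name gives PePr as the caller. The authors' fold was taken as a linear ratio of ChSP over input. How libraries were scaled is not stated, and the deposited p-value is at most 9.99e-06 at every peak. The deposited score column is the fold times a constant and was not used. The fold and p columns carry no descriptive name per the file headers and were read by their place in the line. A further unnamed column, read as an adjusted p, was not used. Peak edges move in steps of 100 bp. The labels number the libraries without naming separate cultures.

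Peaks were matched to genes by the authors' symbol, and 9503 peaks had a gene identifier in a RefSeq table on GRCm38.p6. Motifs and percentiles were computed with Python 3.11.15, pandas 2.3.3 and numpy 2.4.6 and drawn with matplotlib 3.10.9, and the counting steps were tested on simulated data. The genes and lists were chosen with earlier results of these data known. After results were known, 2 genes were taken out of the further thyroid hormone list, leaving the 16 counted, and are not reported here. Values are given for all 10 genes and for the 3 highest folds of each further list; the range over 5 chaperone genes was added after their values were seen. No test was run, because the peak list holds no value per library. Alternatives were a distance of 3 kb, any assigned peak, the 4753 peaks with the smallest p, no peaks among the 5% widest, either end of the RefSeq gene, other rankings, and 2 or more motif matches.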

Additional observations from a re-analysis of the deposited data

How the results depend on the processing

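The count of 7 genes with a promoter peak held at 3 kb (31.6% of all protein-coding genes) and with any assigned peak (33.6%). It was 6 without the 5% widest peaks, which dropped Nr3c1 (29.3% of all protein-coding genes), and 6 with peaks at either end of the RefSeq gene, which gained Nr3c2 and dropped Thrb and Nr3c1 (31.8%). Among the 4753 peaks with the smallest p it was 4 (Thra, Nr3c1, Fkbp5 and Tsc22d3), beside 18.6% of all protein-coding genes. The median highest promoter fold, 29.7, was 38.1 there and 27.1 without the widest peaks. Matching medians over all protein-coding genes were not taken for these settings. The median percentile of the highest promoter fold, 73.4, was 71.6 among the highest peak of each gene and 58.7 when ranked by p. A start window held 2 or more GC boxes in 5 of the 7 genes that have such windows. At least 1 GC box was found in 6, the further gene being Tsc22d3. Over all windows 19.5% held 2 or more, and a matching share over genes was not taken. The further pathway lists, of 16 and 18 genes, together had 19 genes with a promoter peak, beside 30.9% of all protein-coding genes. With the matching share of all protein-coding genes in brackets, the count was 19 at 3 kb (31.6%) and 21 with any assigned peak (33.6%). It was 21 at either end of the RefSeq gene (31.8%) and 17 without the 5% widest peaks (29.3%). Keeping only the 4753 peaks of lowest p left 16 (18.6%). The cause of these shifts was not tested. No paired analysis was possible because each peak carries a joint value for the libraries, and for the same reason no library could be left out. Read depth is unknown, so a gene without a peak may lie under the caller's limit.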

Other observations

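Each thyroid hormone receptor gene has a REV-ERB gene, a repressor of the clock, beside it, and these neighbours were looked at after their values were seen. Nr1d1 overlaps the far end of Thra by 1075 bp in the RefSeq table and had no assigned peak, whereas Thra had a fold of 39.3. Nr1d2 lies 164 kb from Thrb and had a peak over its TSS with a fold of 31.1 (the authors' p = 3.86e-15), whereas Thrb had 19.0. Klf9, which both hormones induce in neurons, had 3 assigned peaks, also named after its values were seen. They had folds of 33.0 over the TSS, 12.1 at 975 bp downstream and 11.4 at 4926 bp upstream.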
